A study of Homo sapiens with 6 samples.

Results

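Of the 40295 genes of the deposited table, 48 code for the splicing regulators described here. They are all protein-coding genes whose symbol starts with SRSF or HNRNP, together with TRA2A, TRA2B, PTBP1, PTBP2, PTBP3 and CLK1 to CLK4. By role they form 12 SR proteins, 2 TRA2 proteins, 4 CLK kinases, 27 hnRNPs and 3 PTB proteins. Their levels were measured by RNA-seq in HDQ-P1, an established human cancer cell line. Cells of 3 libraries received Y-320 at 1 µM over 48 h, and cells of the other 3 libraries were left untreated. Y-320 is a small molecule that the study found to raise readthrough of premature stop codons by the aminoglycoside G418. No G418 is described for either group, and the paper's culture medium for these cells held an antibiotic-antimycotic supplement. No solvent control is described for the untreated cells, so the compound and its solvent cannot be told apart.

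Exons are recognized by proteins that bind short sequences in the pre-mRNA. SR proteins carry RNA-recognition motifs and a tail rich in arginine and serine, and bound to an exon they generally favor its inclusion, whereas hnRNPs and PTB proteins often repress nearby splice sites. The CLK kinases phosphorylate the serines of the SR tail and so set where SR proteins reside and which exons they use. Many genes of these families limit their own mRNA through a poison exon, an alternative exon that brings in a premature stop codon and directs the transcript to nonsense-mediated mRNA decay (NMD), a degradation pathway coupled to translation.

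Internal exons of this kind, which hold the stop codon of an annotated NMD transcript and overlap no exon of a protein-coding transcript of the gene, were found for 16 of the 48 genes in GENCODE 44 on hg38. Genes with other annotated NMD transcripts, such as SRSF1 (3), SRSF2 (2) and HNRNPA2B1 (35), gave no exon under these conditions. Absence from the 16 therefore does not mean that a gene has no poison exon. HNRNPUL2-BSCL2 counts among the 16, but its only annotated transcript is the NMD transcript, so its exon could not be compared with protein-coding ones. The following 7 are shown because they place such an exon in genes that rose, fell or did not pass the test with Y-320. Where the annotation held more than 1 such exon (SRSF3 and SRSF7), the exon in the most NMD transcripts is shown. Ties went to the longest exon. Each sequence runs 5′ to 3′ on the coding strand from the first base of the exon, and capitals mark the in-frame stop codon. For SRSF3 the exon is chr6:36599821-36600276 on the plus strand, for SRSF6 chr20:43459153-43459420 on the plus strand and for SRSF7 chr2:38748898-38749346 on the minus strand. For SRSF4 it is chr1:29165890-29166064 on the minus strand, for TRA2B chr3:185931577-185931852 on the minus strand, for HNRNPL chr19:38841613-38841682 on the minus strand and for CLK3 chr15:74626989-74627066 on the plus strand.
SRSF3: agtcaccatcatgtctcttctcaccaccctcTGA
SRSF6: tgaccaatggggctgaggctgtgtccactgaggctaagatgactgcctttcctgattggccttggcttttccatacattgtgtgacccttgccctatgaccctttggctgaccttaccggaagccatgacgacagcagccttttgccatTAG
SRSF7: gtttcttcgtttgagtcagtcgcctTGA
SRSF4: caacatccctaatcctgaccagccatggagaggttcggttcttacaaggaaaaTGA
TRA2B: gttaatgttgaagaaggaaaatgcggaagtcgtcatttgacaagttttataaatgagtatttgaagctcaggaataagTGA
HNRNPL: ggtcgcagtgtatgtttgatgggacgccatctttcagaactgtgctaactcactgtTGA
CLK3: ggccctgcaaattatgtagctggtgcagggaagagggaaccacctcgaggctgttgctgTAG
The stop codon came after 31 bases of a 456-base exon in SRSF3, after 25 bases of a 449-base exon in SRSF7 and after 149 bases of a 268-base exon in SRSF6. In HNRNPL it came after 56 of 70 bases. The deposited counts are sums per gene and do not separate transcripts with these exons from those without, so no value below measures the inclusion of an exon.

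The values are estimated counts per gene from kallisto, a program that assigns reads to annotated transcripts, and each library held 21045401 to 22740535 counts. Normalized CPM puts each count on a common library total adjusted by the TMM method, so it is a share of the library and not an amount per cell. In bulk samples, fewer cells of a type and less RNA per cell cannot be told apart. Treated and untreated libraries lay apart on the first principal component, with 58.3% of the variance. The labels do not say that the libraries came from separate cultures, so p-values measure the spread between these libraries, which may be technical. An exact permutation test of 3 libraries against 3 cannot give a p below 0.1, and each gene was called by edgeR's quasi-likelihood test fitted across 16580 genes (adjusted p under 0.05). Of 8 epithelial markers, all were detected in all libraries, and their summed level was 8111 to 8482 normalized CPM untreated and 4860 to 4927 with Y-320 (7 lower, and EPCAM higher). Of 10 markers of other cell types, 4 were under 1 normalized CPM in all libraries, 2 were higher and 3 lower, and the list summed to 238 to 269 normalized CPM untreated and 185 to 206 with Y-320. CD68 and PECAM1 were higher, at log2 fold changes of 0.93 and 1.22, and COL1A2, COL1A1 and PDGFRB were lower, at -0.88, -0.70 and -1.82. The part of these shifts in the results was not tested.

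Most of the SR proteins and hnRNPs were moderately lower in cells treated with Y-320, while the kinases CLK1 and CLK3 were higher. Of the 44 genes that passed the filter on low counts, 26 were lower, 3 were higher (CLK1, CLK3 and PTBP3) and 15 did not pass the threshold. Among all 16580 genes tested, 25.4% were lower and 26.2% were higher. The median log2 fold change was -0.15 over the 44 genes and 0.00097 over all genes tested. Most of the splicing regulators had high counts, and genes with high counts as a whole were more often lower. When only genes averaging at least 100 normalized CPM were counted, a limit chosen after the values were seen, 42.8% were lower and 31.5% were higher, with a median of -0.037 over 2221 genes. Of the 30 splicing regulators above that limit, 23 were lower and 0 were higher (edgeR; 0 higher also at an unadjusted p under 0.05), with a median log2 fold change of -0.16. All 3 Y-320 libraries lay below all 3 untreated libraries for 29 of the 44 genes and above them for 4, against 29.4% and 29.8% of all genes tested. The changes were small. The means of the 26 lower genes fell by 5.43% to 23.8%, and 0 of the 44 genes passed the threshold with an absolute log2 fold change of 0.5 or more. Of all 16580 genes tested 2607 did so, and 257 of the 2221 genes averaging at least 100 normalized CPM.

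**Figure D1:**
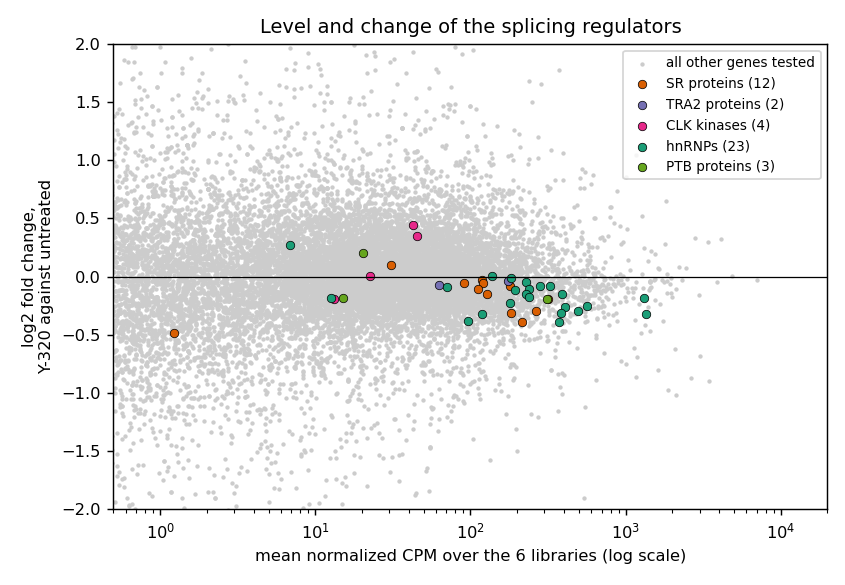
Log2 fold change (Y-320 against untreated, vertical axis) is plotted against the mean normalized CPM over the 6 libraries (horizontal axis, log scale) for all genes tested (grey) and for the 44 splicing regulators (colored by family), with genes beyond ±2 log2 units or under 0.5 CPM outside the axes. Most SR proteins and hnRNPs lie to the right and below 0, and CLK1 and CLK3 lie above 0.

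Summed within each library, the 48 genes held 11005 ± 92.0 normalized CPM when untreated and 9558 ± 115 after Y-320 (SD over 3 libraries each). The hnRNPs held most of this sum, with 8478, 8374 and 8381 normalized CPM in the untreated replicates 1, 2 and 3, against 7128, 7194 and 7352 in the treated ones. The SR proteins held 1915, 1856 and 1851 normalized CPM untreated and 1646, 1628 and 1647 with Y-320. Neither pair of groups overlapped. The CLK kinases summed to 112 ± 0.978 normalized CPM untreated and 134 ± 2.11 after Y-320 (SD over 3 libraries each), and the TRA2 proteins to 242 ± 3.73 and 234 ± 4.09, with overlapping groups. No test was made of these sums, which weigh the most counted genes most.

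**Figure D2:**
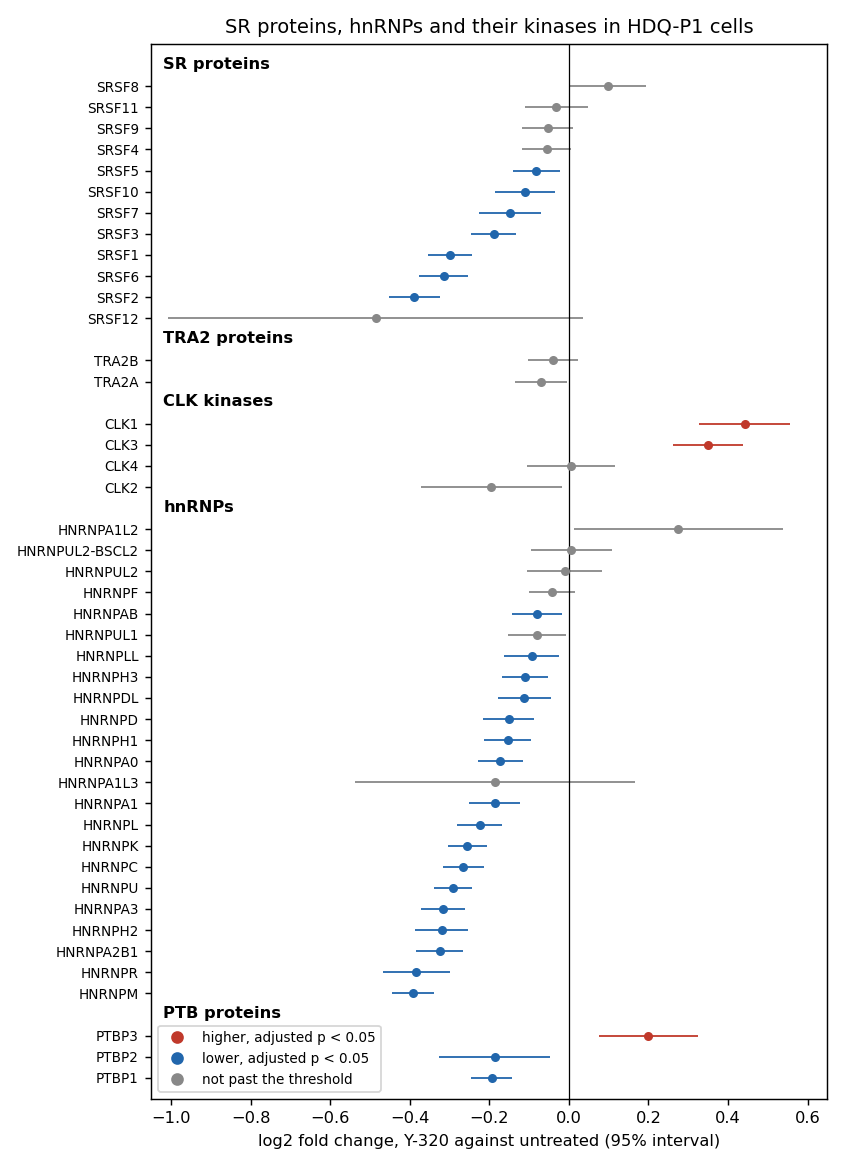
Each point is the log2 fold change of a gene (Y-320 against untreated, horizontal axis) with its 95% interval, grouped by family and colored by whether edgeR's adjusted p passed 0.05. The 17 lower hnRNPs and 7 lower SR proteins lie left of 0, CLK1, CLK3 and PTBP3 lie right of it, and the interval of SRSF12 is the widest.

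Among the SR proteins, 7 of 12 were lower, 0 were higher and 5 did not pass (median log2 fold change -0.13). At an unadjusted p under 0.05, 1 was higher (SRSF8), and DESeq2 and limma-voom called 0 higher. SRSF2 (chromosome 17 from 76734115 to 76737333, minus strand), which promotes recognition of exons through guanine- and cytosine-rich enhancers, had 250.0, 239.9 and 236 normalized CPM in the untreated replicates 1, 2 and 3, against 186, 186 and 182 in the treated replicates 1, 2 and 3. All treated libraries lay below all untreated ones, with a log2 fold change of -0.39 (SE 0.028, edgeR adjusted p = 1.41e-06). Of all 31-base words in the annotated transcripts of SRSF2, 24.2% are shared with other genes. Here and below, a word counts as shared when it matches either strand of another gene's transcript. SRSF6 had 209, 201 and 199 normalized CPM untreated, against 165, 161 and 163 after Y-320, without overlap, and a log2 fold change of -0.32 (SE 0.028, edgeR adjusted p = 5.63e-06). Of the 31-base words of SRSF6, 16.7% are shared with other genes. SRSF1, a founding member of the family that also acts in mRNA export and translation, went from 293 ± 4.48 normalized CPM to 238 ± 4.07 (SD over 3 libraries each), a log2 fold change of -0.30 (SE 0.025, edgeR adjusted p = 3.59e-06). It shares 34.7% of its 31-base words with other genes.

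SRSF3 and SRSF7, both small SR proteins that also link splicing to mRNA export, were lower by less. SRSF3 had 341, 329 and 334 normalized CPM untreated, against 297, 286 and 296 after Y-320, a log2 fold change of -0.19 (SE 0.025, edgeR adjusted p = 1.20e-04). For SRSF7 the mean went from 134 ± 5.81 normalized CPM to 121 ± 2.59 (SD over 3 libraries each), with a log2 fold change of -0.15 (SE 0.035, edgeR adjusted p = 0.00515). The smallest decreases past the threshold among the SR proteins were those of SRSF5 and SRSF10. SRSF5 had 185, 183 and 187 normalized CPM untreated, against 172, 172 and 179 after Y-320, without overlap and with a log2 fold change of -0.082 (SE 0.027, edgeR adjusted p = 0.0263). SRSF10, which acts as a repressor of splicing when its SR tail is dephosphorylated, had 118, 117 and 114 normalized CPM untreated, against 104, 106 and 112 after Y-320, with a log2 fold change of -0.11 (SE 0.034, edgeR adjusted p = 0.0186). In SRSF10 the highest treated library, 112 normalized CPM, lay close to the lowest untreated library, 114. SRSF5 was no longer called under DESeq2 or library-size scaling, nor without untreated replicate 3 (-0.077), Y-320 replicate 1 (-0.072) or Y-320 replicate 2 (-0.071). SRSF10 was not called without untreated replicate 1 (-0.10) or 2 (-0.11), or without Y-320 replicate 1 (-0.089) or 2 (-0.10).

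The SR proteins that did not pass the threshold were SRSF4, SRSF8, SRSF9, SRSF11 and SRSF12. SRSF4 had 92.5, 92.1 and 94.1 normalized CPM untreated, against 88.3, 89.5 and 90.3 after Y-320, without overlap, and an interval that reached 0, with a log2 fold change of -0.056 (95% interval -0.12 to 0.0051, edgeR adjusted p = 0.115). SRSF9 had 124, 123 and 120.4 normalized CPM untreated, against 115, 118 and 121 after Y-320, a log2 fold change of -0.053 (95% interval -0.12 to 0.011, edgeR adjusted p = 0.151), and it shares 44.9% of its 31-base words. SRSF11 had 126, 119 and 115 normalized CPM untreated, against 118, 117 and 118 after Y-320, and the treated values lay within the untreated range, with a log2 fold change of -0.032 (95% interval -0.11 to 0.047, edgeR adjusted p = 0.489). The intervals of these 3 genes leave room for decreases of about the size seen in SRSF5. SRSF8, an SR protein close in sequence to SRSF2, had 28.8, 29.6 and 30.6 normalized CPM untreated, against 32.1, 32.3 and 30.8 after Y-320, and all treated libraries lay above all untreated ones, with a log2 fold change of 0.10 (95% interval 0.0021 to 0.19, edgeR adjusted p = 0.0821). SRSF12 was the least counted SR protein, with 1.57, 1.12 and 1.57 normalized CPM untreated, against 1.02, 0.987 and 1.05 after Y-320, and a log2 fold change of -0.49 (95% interval -1.01 to 0.035, edgeR adjusted p = 0.108) whose interval is wide at this depth. The ratio of SRSF8 to SRSF2 within a library, chosen after the values were seen, was 0.115, 0.123 and 0.129 untreated and 0.172, 0.174 and 0.169 with Y-320.

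**Figure D3:**
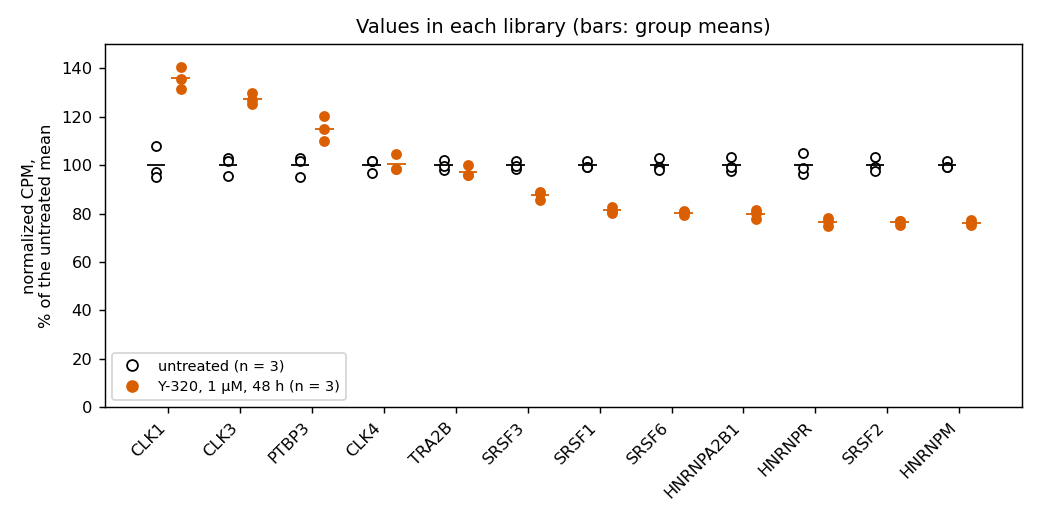
Normalized CPM in each library, as a percentage of the untreated mean of the gene (vertical axis), is shown for 12 genes, with open circles for 3 untreated libraries, filled circles for 3 Y-320 libraries and bars for group means. CLK1 and CLK3 lie above 100% with Y-320, CLK4 and TRA2B near 100%, and SRSF2, HNRNPR and HNRNPM lowest.

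The TRA2 proteins are SR-like activators that bind purine-rich exonic enhancers, and neither passed the threshold. TRA2A had 64.0, 64.0 and 64.5 normalized CPM untreated, against 61.1, 61.5 and 60.6 after Y-320, without overlap between the groups and with a log2 fold change of -0.071 (95% interval -0.14 to -0.0052, edgeR adjusted p = 0.0684). TRA2B had 182, 175 and 177 normalized CPM untreated, against 178, 171 and 170.5 after Y-320, with overlapping groups and a log2 fold change of -0.041 (95% interval -0.10 to 0.023, edgeR adjusted p = 0.266). Of the 2 genes, 1 (TRA2A) was lower at an unadjusted p under 0.05 by edgeR, and DESeq2 and limma-voom called 0. For TRA2B the interval puts a decrease of the size of SRSF2, SRSF6 or SRSF1 outside its range. The difference between TRA2B and those genes was not tested.

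The CLK kinases were split, with 2 of 4 higher and 0 lower (1 lower at an unadjusted p under 0.05, and 0 by DESeq2 and by limma-voom). CLK1 (chromosome 2 from 200853009 to 200864691, minus strand), whose own transcripts often keep introns in the nucleus, had 38.8, 35.0 and 34.2 normalized CPM in the untreated replicates 1, 2 and 3, against 48.8, 47.4 and 50.6 in the treated replicates 1, 2 and 3. All treated libraries lay above all untreated ones, with a log2 fold change of 0.44 (SE 0.051, edgeR adjusted p = 4.23e-05), which was the largest increase of the 44 genes. CLK3 (chromosome 15 from 74598500 to 74645414, plus strand) had 37.9, 41.0 and 40.4 normalized CPM in the untreated replicates 1, 2 and 3, against 51.6, 49.9 and 50.5 in the treated replicates 1, 2 and 3. Its groups did not overlap either, with a log2 fold change of 0.35 (SE 0.04, edgeR adjusted p = 3.68e-05). CLK4, the closest relative of CLK1, had 22.8, 22.7 and 21.6 normalized CPM untreated, against 21.98, 23.3 and 22.01 after Y-320, with the values of both groups interleaved and a log2 fold change of 0.0054 (95% interval -0.11 to 0.12, edgeR adjusted p = 0.942). CLK2 had 13.3, 13.9 and 14.8 normalized CPM untreated, against 13.4, 11.2 and 12.0 after Y-320, and a log2 fold change of -0.20 (95% interval -0.37 to -0.017, edgeR adjusted p = 0.0644). Without Y-320 replicate 1, CLK2 was called at -0.27. The row of CLK2 carries the same values, to 3 decimals, as a row matched to no gene name, and the pair summed to 28.0 normalized CPM in untreated cells. Within each library the ratio of CLK1 to CLK4, chosen after the values were seen, was 1.70, 1.54 and 1.58 untreated and 2.22, 2.03 and 2.30 with Y-320. The annotation lists 8 transcripts with a retained intron among the 14 of CLK1, and the counts do not say which of them changed.

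Of the 27 hnRNP genes, 23 passed the filter on low counts, and of these 17 were lower, 0 were higher and 6 did not pass, with a median log2 fold change of -0.17. At an unadjusted p under 0.05, 1 was higher (HNRNPA1L2), and DESeq2 and limma-voom called 0 higher. HNRNPM (chromosome 19 from 8444767 to 8489114, plus strand), which binds guanine- and uracil-rich sequences, had 431, 419 and 419 normalized CPM in the untreated replicates 1, 2 and 3, against 318, 321 and 328 in the treated replicates 1, 2 and 3. The groups did not overlap, and its mean fell by 23.8%, the largest decrease of the 26 lower genes, with a log2 fold change of -0.39 (SE 0.024, edgeR adjusted p = 3.26e-07). HNRNPR had 114, 105 and 108 normalized CPM untreated, against 85.1, 81.5 and 83.9 after Y-320, also without overlap, and a log2 fold change of -0.38 (SE 0.038, edgeR adjusted p = 1.23e-05). The row of HNRNPR carries the same values, to 3 decimals, as a row matched to no gene name, and the pair summed to 217.9 normalized CPM untreated.

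HNRNPA2B1, which packages nascent transcripts and sorts RNAs, had 1560.2, 1474 and 1497 normalized CPM untreated, against 1172, 1214 and 1232 after Y-320, so that its mean fell by 20.2%, with a log2 fold change of -0.32 (SE 0.027, edgeR adjusted p = 3.32e-06). HNRNPH2, an X-linked gene whose protein binds runs of guanines, had 131, 132 and 135 normalized CPM untreated, against 104, 104 and 110.1 after Y-320, without overlap and with a log2 fold change of -0.32 (SE 0.03, edgeR adjusted p = 9.42e-06). HNRNPA3 went from 423 ± 5.21 normalized CPM to 339.7 ± 8.34 (SD over 3 libraries each), a log2 fold change of -0.32 (SE 0.025, edgeR adjusted p = 2.56e-06). The annotation assigns 64.9% of the 31-base words of HNRNPA3 to another gene as well, 19.4% of those of HNRNPH2 and 12.2% of those of HNRNPA2B1. HNRNPA1, a splicing repressor that counteracts SRSF1, went from 1397 ± 27.1 normalized CPM to 1227 ± 50.4 (SD over 3 libraries each), a log2 fold change of -0.19 (SE 0.029, edgeR adjusted p = 3.55e-04), and it shares 15.2% of its 31-base words.

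HNRNPU, a nuclear matrix protein that binds chromatin and RNA, went from 543 ± 7.24 normalized CPM to 443 ± 4.13 (SD over 3 libraries each), a log2 fold change of -0.29 (SE 0.021, edgeR adjusted p = 1.41e-06). HNRNPC, which binds runs of uracils and keeps cryptic exons out of mRNA, went from 447 ± 5.04 normalized CPM to 372 ± 6.48 (SD over 3 libraries each), a log2 fold change of -0.27 (SE 0.023, edgeR adjusted p = 4.98e-06). HNRNPK, which binds runs of cytosines, went from 613 ± 11.5 normalized CPM to 513 ± 4.57 (SD over 3 libraries each), a log2 fold change of -0.26 (SE 0.022, edgeR adjusted p = 5.01e-06). None of these 3 genes overlapped between the groups. The remaining lower genes with decreases of an intermediate size were HNRNPL (-0.22 on the log2 scale), HNRNPA0 (-0.17), HNRNPH1 (-0.15), HNRNPD (-0.15) and HNRNPDL (-0.11). HNRNPL, a repressor that binds runs of cytosine and adenine, shares its values to 3 decimals with a row matched to no gene name, and the pair summed to 388.9 normalized CPM untreated. Of the 31-base words of HNRNPL, 14.7% are shared with other genes.

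The smallest decreases past the threshold were found for HNRNPAB, HNRNPLL and HNRNPH3. HNRNPAB had 297, 285 and 278 normalized CPM untreated, against 269.8, 269 and 275 after Y-320, a log2 fold change of -0.081 (SE 0.028, edgeR adjusted p = 0.036). HNRNPLL, a paralog of HNRNPL known for its part in CD45 splicing in lymphocytes, had 72.3, 73.8 and 71.9 normalized CPM untreated, against 69.6, 67.1 and 67.5 after Y-320, a log2 fold change of -0.094 (SE 0.031, edgeR adjusted p = 0.0267). HNRNPH3 had 251, 249.8 and 246 normalized CPM untreated, against 231, 225 and 236 after Y-320, a log2 fold change of -0.11 (SE 0.026, edgeR adjusted p = 0.00454). In each of the 3 genes the groups did not overlap. HNRNPAB was no longer called when any library except untreated replicate 3 was left out (-0.089 to -0.056), and HNRNPLL without untreated replicate 2 (-0.084), Y-320 replicate 2 (-0.082) or Y-320 replicate 3 (-0.086). Without the filter on low counts neither was called, nor was HNRNPAB under library-size scaling or HNRNPLL under DESeq2. The ratio of HNRNPL to HNRNPLL within a library, chosen after the values were seen, was 2.66, 2.66 and 2.71 untreated and 2.37, 2.46 and 2.51 with Y-320.

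The 6 hnRNPs that were tested and did not pass the threshold were HNRNPF, HNRNPUL1, HNRNPUL2, HNRNPUL2-BSCL2, HNRNPA1L2 and HNRNPA1L3. HNRNPF, a relative of HNRNPH1 and HNRNPH2 that also binds runs of guanines, had 228, 235 and 231 normalized CPM untreated, against 219.9, 226 and 229 after Y-320, with overlapping groups and a log2 fold change of -0.043 (95% interval -0.10 to 0.015, edgeR adjusted p = 0.2). The ratio of HNRNPH2 to HNRNPF within a library, also chosen after the values were seen, was 0.576, 0.561 and 0.583 untreated and 0.475, 0.463 and 0.481 with Y-320. HNRNPUL1 had 333, 339 and 332 normalized CPM untreated, against 333, 307 and 309 after Y-320, where Y-320 replicate 1 lay among the untreated libraries, and a log2 fold change of -0.081 (95% interval -0.15 to -0.0086, edgeR adjusted p = 0.0601). It was called at -0.12 without Y-320 replicate 1, the treated library that lay highest. HNRNPUL2 had 182, 175 and 194 normalized CPM untreated, against 174, 182 and 189.8 after Y-320, and a log2 fold change of -0.011 (95% interval -0.10 to 0.083, edgeR adjusted p = 0.85). HNRNPUL2-BSCL2, a readthrough gene that joins HNRNPUL2 to its neighbor, had 139.6, 143 and 127 normalized CPM untreated, against 144, 135 and 132 after Y-320, and a log2 fold change of 0.0061 (95% interval -0.10 to 0.11, edgeR adjusted p = 0.926). It shares 99.2% of its 31-base words with other genes, so the division of reads between it and HNRNPUL2 is uncertain. HNRNPA1L2 and HNRNPA1L3, copies of HNRNPA1, share 100% and 58.4% of their 31-base words with other genes. HNRNPA1L2 had 6.61, 5.65 and 6.34 normalized CPM untreated, against 8.48, 6.48 and 7.54 after Y-320, a log2 fold change of 0.28 (95% interval 0.013 to 0.54, edgeR adjusted p = 0.075). HNRNPA1L3 had 9.91, 14.5 and 16.1 normalized CPM untreated, against 12.5, 10.1 and 12.9 after Y-320, a log2 fold change of -0.19 (95% interval -0.54 to 0.17, edgeR adjusted p = 0.36), and reads of both are uncertain next to the far more counted HNRNPA1. Without Y-320 replicate 2 HNRNPA1L2 was called at 0.37, and without untreated replicate 1 HNRNPA1L3 was called at -0.37. The filter removed HNRNPCL1 to HNRNPCL4, copies of HNRNPC. HNRNPCL3 and HNRNPCL4 had 0 counts in all 6 libraries, which allows up to 0.131 to 0.144 normalized CPM per library (3 counts, counting error only), and HNRNPCL1 and HNRNPCL2 had less than 1 estimated count in each library.

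The PTB proteins, which bind pyrimidine-rich sequences and repress exons, moved in different directions. PTBP1, the form of most non-neuronal cells, had 326, 337 and 331 normalized CPM in the untreated replicates 1, 2 and 3, against 291, 289.6 and 287 in the treated replicates 1, 2 and 3, without overlap and with a log2 fold change of -0.19 (SE 0.023, edgeR adjusted p = 4.91e-05). PTBP2, the neuronal form, whose mRNA is kept low by PTBP1 through skipping of an exon that leads to NMD, had 15.2, 15.9 and 17.1 normalized CPM untreated, against 14.2, 13.9 and 14.4 after Y-320, a log2 fold change of -0.19 (SE 0.063, edgeR adjusted p = 0.0292). PTBP3 had 19.5, 19.2 and 18.0 normalized CPM untreated, against 20.7, 21.7 and 22.7 after Y-320, and all treated libraries lay above all untreated ones, with a log2 fold change of 0.20 (SE 0.056, edgeR adjusted p = 0.0125). The calls of PTBP2 and PTBP3 were lost under DESeq2, and that of PTBP2 also without the filter on low counts. PTBP2 was called without untreated replicate 1, and lost the call when any other library was left out (-0.20 to -0.14). PTBP3 was also not called without untreated replicate 3 (log2 fold change 0.16) or without Y-320 replicate 3 (0.17). The ratio of PTBP3 to PTBP1 within a library, chosen after the values were seen, was 0.0597, 0.0570 and 0.0542 untreated and 0.0712, 0.0748 and 0.0788 with Y-320.

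Levels of different genes were compared as normalized CPM per kilobase of merged exons, in untreated cells. The highest level per kilobase was that of HNRNPA1, 209 ± 4.04 (SD, n = 3), followed by HNRNPAB at 135 ± 4.501, HNRNPA2B1 at 119.7 ± 3.55 and HNRNPK at 108 ± 2.02. SRSF2 was the highest SR protein at 81.3 ± 2.42 per kilobase, above HNRNPM at 75.5 ± 1.23 and HNRNPF at 70.7 ± 1.15. PTBP1 reached 44.04 per kilobase, PTBP3 2.29 and PTBP2 0.800. Among the CLK kinases, CLK1 was at 7.04 per kilobase, CLK2 at 3.83, CLK4 at 2.82 and CLK3 at 2.02. CLK2 would stand above CLK1, at 7.65 per kilobase, if its row and the unnamed row with the same values were summed. The SDs of neighbors in this order did not overlap from HNRNPA1 down to HNRNPF. The order depends on the length used, since by the longest transcript HNRNPA2B1 (225 per kilobase), HNRNPK (209) and HNRNPM (165) stood above HNRNPAB (161), with HNRNPA1 first at 339. By that length CLK4 (6.01 per kilobase) stood above CLK2 (5.18), with CLK1 at 11.2 and CLK3 at 3.79.

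The genes were selected by symbol and not by transcript annotation, although these families are known for NMD-linked exons. Of the 44 genes tested, 34 (77.3%) have at least 1 annotated NMD transcript, compared with 46.0% of the 14342 protein-coding genes tested. HNRNPA2B1 leads with 35 NMD transcripts among 49, and HNRNPA1 has 18 among 84. Of the 34 genes with such a transcript, 22 were lower and 2 higher (median log2 fold change -0.15), and of the 10 without, 4 were lower and 1 higher (median -0.096). The 10 include CLK2, PTBP3, HNRNPA1L2 and HNRNPA1L3, which averaged 6.85 to 20.3 normalized CPM over all libraries and were not called lower. The 34 also hold weakly counted genes, such as SRSF12 and PTBP2, and the difference between these sets was not tested. Over all protein-coding genes tested, 28.2% of the 6594 with an NMD transcript were lower and 27.1% higher (median -0.0051), and 27.3% of the 7748 without were lower and 27.9% higher (median -0.0023). The 60 RefSeq promoters (250 bases before to 50 after the start, GRCh38.p14) that matched 43 of the 48 genes had a median GC content of 64.8% and 29 CpG dinucleotides, against 58.7% and 14 over 35116 promoters. The larger set, of 27305 genes, was not limited to protein-coding or expressed genes, and the difference was not tested. Contigs outside the main chromosomes were left out only for the 60 promoters.

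Other genes of the splicing machinery were read from lists beside the same fit. Of all 16580 genes tested, 25.4% were lower and 26.2% higher. Of the 2221 averaging at least 100 normalized CPM, 42.8% were lower and 31.5% higher. The shares lower were 57.1% for SR protein kinases and import factors and 45.9% for SR-related proteins. For hnRNPs under other symbols the share lower was 42.9%, and for other splicing regulators it was 60%. Of 7 kinases and import factors of SR proteins, 4 were lower and 0 higher (0 higher also at an unadjusted p under 0.05, and by DESeq2 and limma-voom), with a median log2 fold change of -0.18. Their number lower was 2 under DESeq2, and also without untreated replicate 1 or 3 or Y-320 replicate 2 or 3. The largest decreases past the threshold were in PRPF4B, a kinase of the spliceosome, from 91.3 ± 2.43 normalized CPM to 68.4 ± 0.820 (SD over 3 libraries each), with a log2 fold change of -0.42 (SE 0.032, edgeR adjusted p = 1.73e-06), and in SRPK1, the cytoplasmic SR protein kinase, from 108 ± 2.72 normalized CPM to 91.6 ± 1.66 (SD over 3 libraries each), with a log2 fold change of -0.24 (SE 0.03, edgeR adjusted p = 8.18e-05). Of 37 SR-related proteins tested, 17 were lower and 2 higher (median -0.096; 1 higher under DESeq2, without untreated replicate 2 or without Y-320 replicate 2), led by PNN (-0.43), a nuclear speckle protein, and ARGLU1 (-0.34). Of 7 hnRNPs under other symbols, 3 were lower and 1 higher (median -0.041), with SYNCRIP, also called hnRNP Q, at -0.20 and PCBP1, also called hnRNP E1, at 0.19. Of 35 other splicing regulators, 21 were lower and 6 higher (median -0.17), and the leading changes were in the weakly expressed RBM24, from 5.38 ± 0.255 normalized CPM to 2.16 ± 0.201 (SD over 3 libraries each), with a log2 fold change of -1.32 (SE 0.13, edgeR adjusted p = 1.36e-05), and NOVA1, from 4.17 ± 0.334 normalized CPM to 2.13 ± 0.305 (SD over 3 libraries each), with a log2 fold change of -0.97 (SE 0.16, edgeR adjusted p = 4.29e-04).

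Of 64 core spliceosome genes, 22 (34.4%) were lower and 13 (20.3%) higher (median -0.045), beside 25.4% and 26.2% of all genes tested. BUD31 rose from 67.5 ± 1.14 normalized CPM to 101 ± 2.36 (SD over 3 libraries each), with a log2 fold change of 0.59 (SE 0.031, edgeR adjusted p = 1.31e-07), and SF3B3, a subunit of the U2 particle, fell from 186 ± 3.36 normalized CPM to 137 ± 0.713 (SD over 3 libraries each), with a log2 fold change of -0.45 (SE 0.026, edgeR adjusted p = 2.23e-07). Of 17 factors of NMD and the exon junction complex, 6 (35.3%) were higher and 5 (29.4%) lower (median 0.060), led by MAGOHB, a core component of that complex, from 23.7 ± 0.756 normalized CPM to 40.3 ± 0.245 (SD over 3 libraries each), with a log2 fold change of 0.77 (SE 0.041, edgeR adjusted p = 1.28e-07), and UPF2 from 107 ± 3.20 normalized CPM to 129 ± 3.02 (SD over 3 libraries each), with a log2 fold change of 0.27 (SE 0.032, edgeR adjusted p = 5.20e-05). The differences between these lists and the SR proteins or hnRNPs were not tested.

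**Figure D4:**
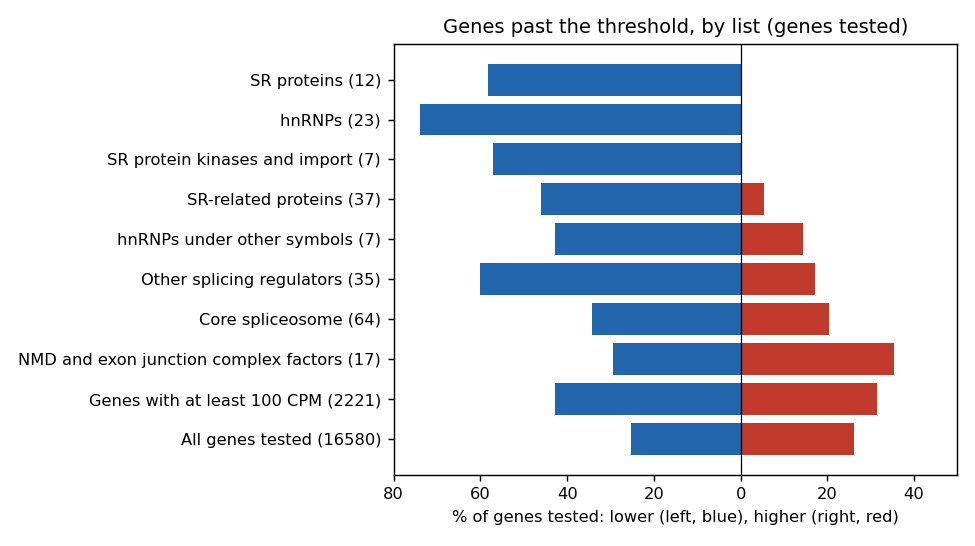
Bars give the percentage of tested genes past the threshold for each list (number tested in brackets), lower with Y-320 to the left and higher to the right. The hnRNPs reach 73.9% lower and the SR proteins 58.3%, next to 42.8% of genes with at least 100 CPM and 25.4% of all genes tested.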

How the data were processed

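RNA-seq libraries were made from total RNA of HDQ-P1 cells, 3 after 48 h in 1 µM Y-320 and 3 untreated. The authors deposited estimated counts per gene, without normalization, from kallisto 0.46.1 on hg38 per the submitters' processing notes; the Ensembl release is not given in the sources used here. Reads shared by similar transcripts are divided among them, so copies of a gene can exchange counts.

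Counts were rounded, filtered with filterByExpr (minimum 10 counts, 15 in total), scaled by TMM and tested with edgeR 4.0.16 in R 4.3.3 (quasi-likelihood, no block, Benjamini-Hochberg over 16580 genes, threshold 0.05). The study combined several unnamed pipelines, which were not repeated. DESeq2 1.42.0 and limma-voom (limma 3.58.1) were alternatives. The fit was run on simulated data with far fewer changed genes than were called here. That run does not test the scaling under changes this widespread. Gene positions, exons and transcript types came from GENCODE 44, and shared 31-base words from its transcripts, matched on both strands. Python 3.11.15, numpy 2.4.6, pandas 2.3.3 and matplotlib 3.10.9 made tables and plots.

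The genes and lists were chosen with earlier results of these data known. Values in every library are given for the CLK, TRA2 and PTB genes, the 5 SRSF or HNRNP genes with the largest and the 5 with the smallest log2 fold change past the threshold, those tested that did not pass, and some others. From each other list the 2 called genes with the largest absolute change are named. Where a list symbol had 2 rows (1 symbol), the row with more counts was used. Depth was 21045401 to 22740535 counts per library.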

Additional observations from a re-analysis of the deposited data

How the results depend on the processing

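Of the 29 called splicing regulators, 23 kept direction and call under every alternative, namely 2 other filters, DESeq2, limma-voom, RLE, library-size and upper-quartile scaling, the replicate block, counts used without rounding, and fits without each library. PTBP2, PTBP3, SRSF5, SRSF10, HNRNPAB and HNRNPLL lost the call under at least 1, in the same direction (PTBP2, PTBP3, SRSF5 and HNRNPLL under DESeq2, PTBP2, HNRNPAB and HNRNPLL without a filter, SRSF5 and HNRNPAB under library-size scaling, and all 6 with some library left out). The number lower ran from 21 (without Y-320 replicate 2) to 32 (upper-quartile scaling). The cause of these shifts was not tested.

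With an absolute log2 fold change of 0.5 or more required, 0 splicing regulators were higher and 0 lower, beside 2607 called genes among all 16580 tested. At a mean of at least 100 normalized CPM, 0 splicing regulators were higher. Upper-quartile scaling, which moved the median of all genes to -0.028, gave 1 lower CLK kinase, 1 lower TRA2 protein, 1 higher SR-related protein and a median of -0.18 over the splicing regulators. DESeq2 gave 0 higher and 1 lower PTB protein, 2 lower SR protein kinases and import factors, 1 higher SR-related protein and 3 lower NMD factors. Without a filter, 1 PTB protein and 2 SR protein kinases and import factors were lower. Library-size scaling gave 2 lower SR protein kinases and import factors and 2 higher hnRNPs under other symbols. Libraries with the same replicate number showed no sign of pairing (correlations of deviations -0.0024, 0.015 and 0.0022, beside -0.044 to 0.040 for unlike numbers). With 3 libraries per group, these values cannot show whether the libraries were paired. With the replicate block 1 hnRNP (HNRNPA1L2, 0.27) was higher, and 4 splicing regulators were higher and 26 lower in all.

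With each library left out in turn, the median of the splicing regulators ran from -0.15 to -0.12 (without Y-320 replicate 2). The number lower was 0 to 1 for CLK kinases, 1 to 2 for PTB proteins and 2 to 3 for SR protein kinases and import factors, and the number higher was 0 to 1 for hnRNPs, 0 to 1 for PTB proteins and 1 to 3 for SR-related proteins. Directions reversed only in genes that had not passed the threshold. CLK4 was -0.023 under upper-quartile scaling and -0.022 to 0.021 with a library left out. HNRNPUL2 was 0.0019 under library-size scaling and -0.045 to 0.028 with a library left out, HNRNPUL2-BSCL2 was -0.023 under upper-quartile scaling and -0.044 to 0.039, and SRSF11 was -0.064 to 0.0044 (the highest without untreated replicate 1). At this depth, genes near 1 normalized CPM such as SRSF12 rest on few counts.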
